A study of Sus scrofa with 48 samples.

Results

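The genes described here encode the myostatin and activin ligands, the follistatin family that binds them, their receptors and the SMAD proteins that carry the signal to the nucleus. The 10 genes are MSTN, INHBA, FST, FSTL3, FSTL1, ACVR2A, ACVR2B, ACVR1, SMAD2 and SMAD3, among 10922 gene symbols on the array. Their probes were found by the symbol in the gene name of a spot or in brackets in its description. No measured value entered that match, but the genes themselves were chosen with earlier results of these data known. They were read by 25 of 60305 distinct probes, all found through the gene name. Of these, 24 probes were tested, since the scanner flagged them as well above background on 12 arrays or more of the 48, so that every gene had at least 1 tested probe. The tested probes were well above background on 48 arrays, except 1 SMAD3 probe with 46 arrays, and the probe left out was an INHBA probe with 0 arrays.

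Gene expression was measured in longissimus muscle of 48 Large White barrows, each on its own one-colour 60 K microarray. The pigs came from a line selected for low residual feed intake (low RFI, RFIneg in the labels) and a line selected for high residual feed intake (high RFI, RFIpl), where residual feed intake is the feed eaten beyond what growth and body size predict. Within each line, 12 pigs had free access to a diet high in fat and fiber (HF) and 12 to a diet low in both (LF), which gives 4 groups. The comparisons ask how the lines differ, how the diets differ, and whether the line difference depends on the diet.

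Myostatin is a ligand of the transforming growth factor β family that muscle fibres secrete and that restrains muscle growth. It and the activins bind the type II receptors ACVR2A and ACVR2B, which recruit type I receptors that phosphorylate SMAD2 and SMAD3. Follistatin and its relative FSTL3 bind myostatin and activins outside the cell and keep them from their receptors.

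Sequences of some probes behind the main results are printed as the array files give them, since several probes of a gene did not read the same difference. For MSTN, the pair of probes that were called between lines, A_72_P165466 and O14998, share 57 consecutive bases of their 60. The other MSTN probe, A_72_P225892, shared no more than 5 consecutive bases with either of them. The probes of ACVR2B carry 1 sequence and are therefore a repeat measurement of the same 60 bases.

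ACVR2B A_72_P088631 and O5503: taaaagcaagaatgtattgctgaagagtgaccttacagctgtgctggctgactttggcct

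ACVR2A was read by 1 probe and ACVR1 by 6, of which the 2 with the largest line differences are shown with it.

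ACVR2A A_72_P414253: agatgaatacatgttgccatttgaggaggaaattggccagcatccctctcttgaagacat
ACVR1 A_72_P219807: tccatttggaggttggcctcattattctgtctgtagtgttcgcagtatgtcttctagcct
ACVR1 O13263: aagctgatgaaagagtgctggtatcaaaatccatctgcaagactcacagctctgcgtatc

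Follistatin was read by 4 probes. Shown is the pair for which the array files give a start in the transcript, at bases 229 and 737. Its line differences had opposite signs, but neither was called, and the difference between these probes was not tested.

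FST A_72_P057356: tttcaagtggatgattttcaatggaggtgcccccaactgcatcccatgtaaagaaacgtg
FST A_72_P640386: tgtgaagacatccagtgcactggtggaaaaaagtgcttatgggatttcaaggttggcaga

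Between lines, 6 of the 24 member probes were called (limma, Benjamini-Hochberg adjusted p under 0.05 over 42125 probes), and all 6 were lower in high RFI pigs. Of all tested probes 16.4% were called, with 9.85% called lower and 6.57% called higher in high RFI pigs. The called probes belonged to 3 genes, MSTN, ACVR2A and ACVR1, and probes of a gene share their target and are no independent counts. The median line difference, high minus low RFI on the log2 scale, was -0.09 over the member probes and -0.03 over all tested probes. In what follows a level is the log2 of the processed signal minus the mean of its array over the tested probes, and levels of different probes are not set against each other. A bulk muscle sample cannot tell fewer cells of a type from less RNA per cell.

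**Figure D1:**
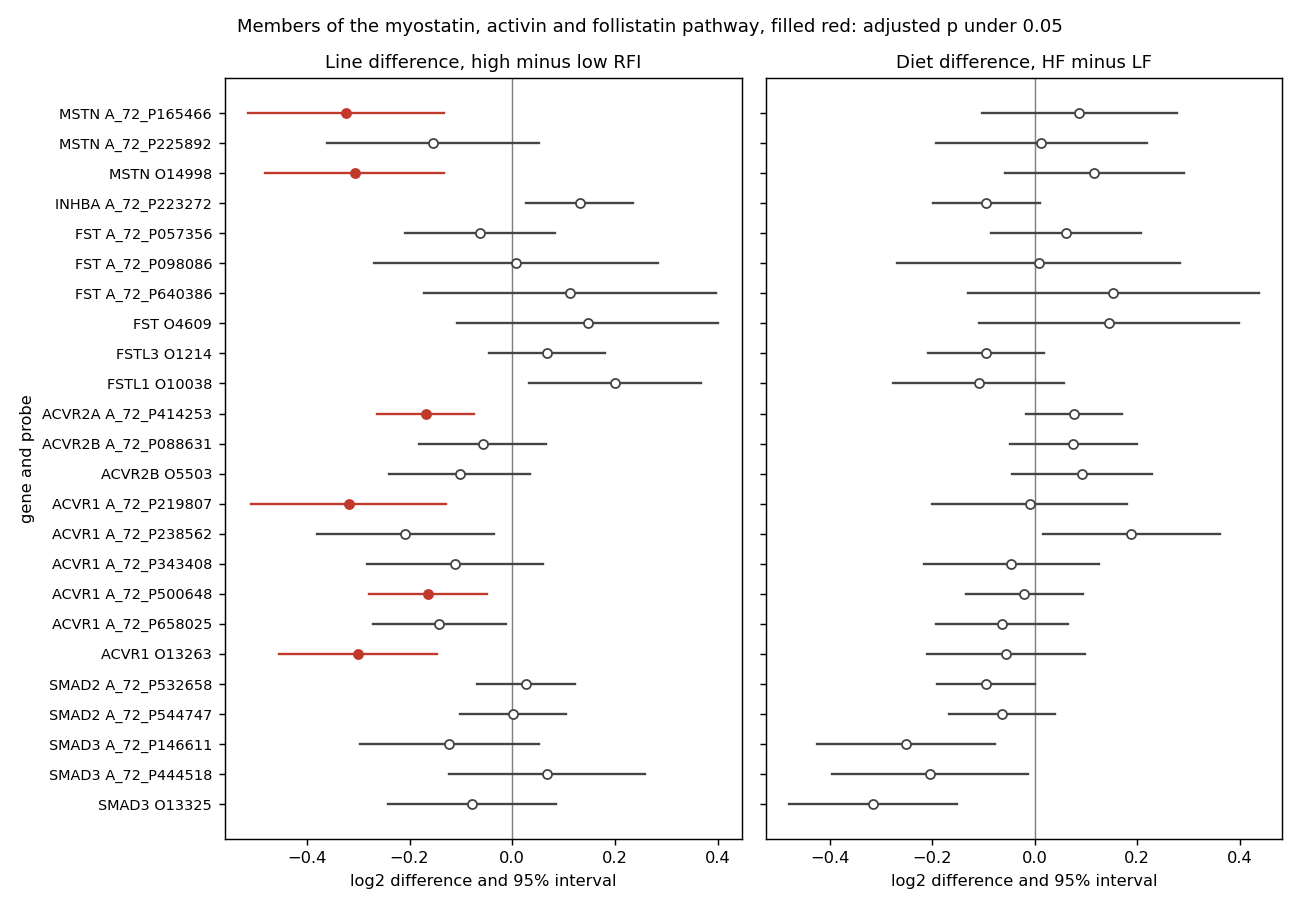
Line difference (left, high minus low RFI) and diet difference (right, HF minus LF) of each of the 24 tested member probes, on the log2 scale with 95% intervals from limma over 48 pigs. Filled red points are called: 6 on the left, all below 0, and 0 on the right, where the 3 SMAD3 probes at the bottom lie between -0.32 and -0.20.

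Myostatin mRNA was lower in high RFI pigs on the overlapping pair of probes, while the other MSTN probe gave a smaller difference that was not called. Where that probe, A_72_P225892, lies in the transcript was not established. On O14998, the level in low RFI pigs ran from -0.10 to 0.95 around a median of 0.47, and in high RFI pigs from -0.50 to 0.80 around a median of 0.15. The lines overlapped, with 18 of 24 high RFI pigs below the mean of the low RFI line and 5 of them below every low RFI pig. The means were 0.47 ± 0.27 and 0.16 ± 0.33 (SD, n = 24 each), a line difference of -0.31 ± 0.09 (SE) or a 1.24-fold lower signal (limma adjusted p = 0.0117). A_72_P165466 gave -0.32 ± 0.09 (limma adjusted p = 0.0147), with 18 of 24 high RFI pigs below the low RFI mean.

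By group, the mean of O14998 was 0.53 ± 0.31 for low RFI with HF and 0.41 ± 0.23 for low RFI with LF (SD, n = 12 each). It was 0.22 ± 0.30 for high RFI with HF and 0.10 ± 0.36 for high RFI with LF. Both high RFI groups thus lay below both low RFI groups, although no step between neighbours in that order exceeded the smaller SD of the pair. The lines differed by -0.31 under HF feeding and by -0.30 under LF feeding, each with 12 pigs a group, and neither was called alone (limma adjusted p = 0.108 and 0.184). Within the 6 array slides it ranged from -0.55 to -0.04, below 0 on each, and it was -0.28 and -0.33 on the 2 scan days.

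A_72_P225892, the brightest MSTN probe, ran from -0.27 to 1.25 in low RFI pigs, with a median of 0.41, and from -0.39 to 0.88 in high RFI pigs, with a median of 0.36. The lines lay over each other, and 14 of 24 high RFI pigs were below the low RFI mean. Its line difference was -0.15, with a 95% interval from -0.36 to 0.05 (limma adjusted p = 0.307). The difference between probes was itself tested per pig, a comparison added after the values had been seen. The line difference on O14998 differed from that on A_72_P225892 by -0.15 (two-sided permutation test within diets with 100000 permutations, p = 0.0238, adjusted over 3 probe pairs 0.0357), and A_72_P165466 gave -0.17 (permutation p = 0.0198, adjusted 0.0357). Across pigs, with group means removed, A_72_P225892 correlated with the overlapping pair at r = 0.76 and 0.78, and the pair with each other at r = 0.97 (n = 48). The mean of the 3 probes, in which the overlapping pair has more weight than A_72_P225892, differed by -0.26 between lines (limma adjusted p = 0.0368). The call for MSTN thus depends on how its probes are combined.

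**Figure D2:**
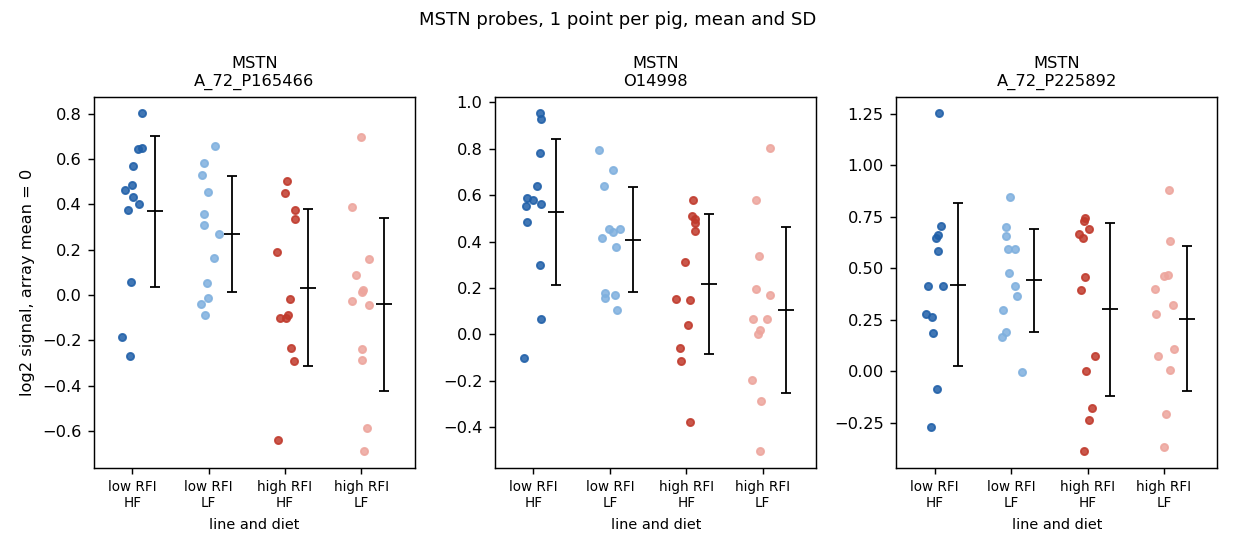
Level of the 3 MSTN probes in each of the 48 pigs (log2 signal, array mean at 0), by line and diet, with the mean and SD of each group of 12. On the overlapping probes A_72_P165466 and O14998 both high RFI groups sit lower, with line differences of -0.32 and -0.31, and on A_72_P225892 the groups lie closer together, at -0.15.

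INHBA, which encodes the subunit that forms activin A, was read by 1 tested probe and did not pass the test. The INHBA probes disagreed on detection. The tested probe, at base 3499 of its target record, was well above background on 48 arrays. The probe left out, at base 979 of the same record, was so on 0 arrays. The reason was not tested, so the values below hold for the tested probe alone. In low RFI pigs its level ran from 1.07 to 1.72 around a median of 1.42, and in high RFI pigs from 1.14 to 1.90 around a median of 1.54. Although the ranges overlapped almost wholly, 21 of 24 high RFI pigs exceeded the mean of the low RFI line. The line difference was 0.13, with a 95% interval from 0.03 to 0.24 (limma adjusted p = 0.0735). It passed the threshold with quantile normalization, normexp background correction, a filter of 36 arrays or the slide as a block, with adjusted p between 0.0332 and 0.0468.

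None of the 6 probes of the follistatin family was called between lines. FST was the member that varied most among pigs, with a within-group SD of 0.45 to 0.50 on 3 of its 4 probes and 0.25 on A_72_P057356. On O4609, its brightest probe, low RFI pigs ran from 0.87 to 2.94 around a median of 1.72, and high RFI pigs from 0.88 to 2.82 around a median of 1.92. The lines spanned the same range, and the line difference was 0.15, with a 95% interval from -0.11 to 0.40 (limma adjusted p = 0.449).

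The remaining FST probes gave 0.11 on A_72_P640386, 0.01 on A_72_P098086 and -0.06 on A_72_P057356, with adjusted p of 0.591 or more. The interval on A_72_P640386, from -0.17 to 0.40, reaches sizes beyond that of the MSTN difference, so a higher level of that size is not excluded. O4609, A_72_P640386 and A_72_P098086 varied together, with r of 0.88 to 0.94 over 48 pigs and group means removed, and A_72_P057356 followed them at r of 0.65 to 0.71.

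FSTL3 ran from -2.51 to -1.61 in low RFI pigs and from -2.31 to -1.64 in high RFI pigs, with medians of -2.04 and -1.97. Its line difference was 0.07, with a 95% interval from -0.05 to 0.18 (limma adjusted p = 0.435). FSTL1, a secreted glycoprotein of the same family that binds BMP ligands, ran from 3.99 to 5.16 in low RFI pigs around a median of 4.45. In high RFI pigs it ran from 4.04 to 5.18 around a median of 4.74, so that the ranges coincided while 19 of 24 high RFI pigs exceeded the mean of the low RFI line. The line difference was 0.20 ± 0.08 (SE), with a 95% interval from 0.03 to 0.37 that did not pass the test (limma adjusted p = 0.0901). The value was 0.29 with HF and 0.11 with LF, and the difference between diets did not pass either (unadjusted limma p for the interaction = 0.271).

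ACVR2A, a type II receptor for activins and myostatin, was lower in high RFI pigs. Its level ran from -1.63 to -0.79 in low RFI pigs around a median of -1.26, and from -1.65 to -1.10 in high RFI pigs around a median of -1.44. Although the lines overlapped, 20 of 24 high RFI pigs were below the low RFI mean and 4 low RFI pigs were above every high RFI pig. The line difference was -0.17 ± 0.05 (SE), a 1.12-fold lower signal (limma adjusted p = 0.0105), and it was below 0 on each of the 6 slides, between -0.33 and -0.0013.

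On the HF diet, the mean of ACVR2A was -1.16 ± 0.15 in low RFI and -1.40 ± 0.16 in high RFI pigs (SD, n = 12 each), and on the LF diet it was -1.31 ± 0.16 and -1.40 ± 0.15. The high RFI groups were thus at one level, and the low RFI pigs fed HF stood highest. ACVR2A was the 1 member probe of 24 called for the line difference on the HF diet, where 6.39% of all tested probes were called, with -0.24 (limma adjusted p = 0.0226). This call was lost with normexp background correction and without a filter on dim probes. On the LF diet the difference was -0.09 (limma adjusted p = 0.519), and the interaction of -0.15 had an unadjusted limma p of 0.112. No member probe was called on the LF diet by limma, where 2.47% of all tested probes were called and 5 of 24 member probes had an unadjusted p under 0.05 (16.5% of all tested probes), against 7 on the HF diet (24.2%).

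ACVR2B, the other type II receptor, was not called on either copy of its probe. On O5503 the level ran from -2.22 to -1.42 in low RFI pigs around a median of -1.82, and from -2.38 to -1.26 in high RFI pigs around a median of -1.88. The line difference was -0.10, with a 95% interval from -0.24 to 0.04 (limma adjusted p = 0.310), and on the copy it was -0.06 (limma adjusted p = 0.557). Although the copies share all 60 bases, their correlation over pigs was r = 0.79 with an SD of 0.15 for the difference between them, which holds the measurement error of both.

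ACVR1, a type I receptor also known as ALK2 that mainly signals through BMP-type SMADs, had a negative line difference on each of its 6 probes, between -0.32 and -0.11, and 3 of them were called lower in high RFI pigs. On O13263, low RFI pigs ran from -0.22 to 1.01 around a median of 0.35, and high RFI pigs from -0.48 to 0.51 around a median of 0.01. The ranges overlapped, yet 22 of 24 high RFI pigs were below the low RFI mean. The means were 0.31 ± 0.28 and 0.01 ± 0.24 (SD, n = 24 each), a line difference of -0.30 ± 0.08 (SE) or a 1.23-fold lower signal (limma adjusted p = 0.00532). Fed HF the lines differed by -0.29, and fed LF by -0.31.

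On A_72_P219807, low RFI pigs ran from -3.20 to -1.74 around a median of -2.60, and high RFI pigs from -3.45 to -2.38 around a median of -2.92. Of the high RFI pigs 20 of 24 were below the low RFI mean and 6 were below every low RFI pig. This probe was dim, with processed signals from 30.6 to 72.7, beside array medians from 52.8 to 107.9. The line difference was -0.32 ± 0.09 (SE, limma adjusted p = 0.0160), and over the processing alternatives its size ranged from -0.34 to -0.14. On A_72_P500648, the brightest ACVR1 probe, it was -0.16 ± 0.06 (limma adjusted p = 0.0403), a call lost with quantile normalization, normexp correction or no filter (adjusted p 0.0535, 0.107 and 0.128). The ACVR1 probes not called gave -0.21, -0.14 and -0.11 (limma adjusted p = 0.0867, 0.123 and 0.384).

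The line differences of the called ACVR1 probes were not evenly spread over the scan days. O13263 gave -0.20 on one day and -0.40 on the other, A_72_P219807 gave -0.16 and -0.48, and A_72_P500648 gave -0.05 and -0.28. On the slides, O13263 was below 0 on 5 of 6, A_72_P500648 on 5 and A_72_P219807 on 4. With the scan day or the slide as a block these 3 probes were called as before.

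**Figure D3:**
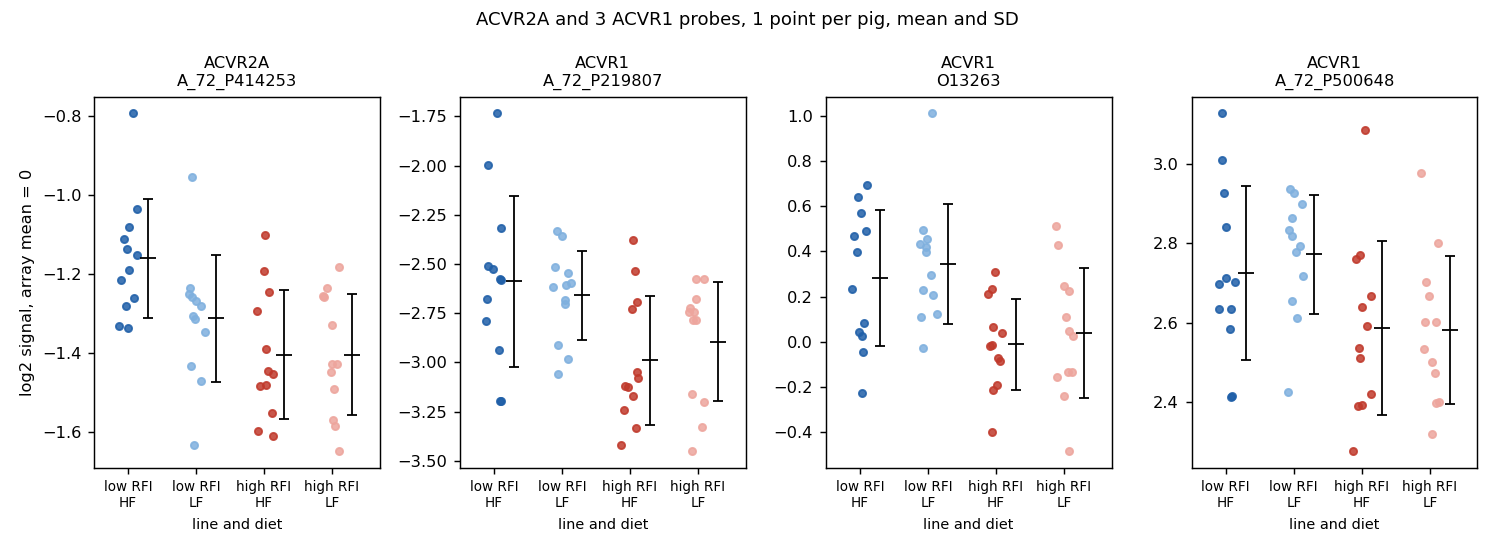
Level of the ACVR2A probe and the 3 called ACVR1 probes in each of the 48 pigs (log2 signal, array mean at 0, a scale of its own in each panel), by line and diet, with the mean and SD of each group of 12. On O13263 the high RFI means of -0.01 and 0.04 lie below the low RFI means of 0.28 and 0.35, and for ACVR2A the low RFI pigs fed HF stand highest, at -1.16.

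The ACVR1 probes did not follow one another equally from pig to pig. A_72_P343408, A_72_P658025 and A_72_P500648, which start at bases 1763, 2336 and 2701 of their targets, correlated at r between 0.71 and 0.89 (n = 48, group means removed). A_72_P219807, which starts at base 592, correlated with O13263 at r = 0.62 and with A_72_P238562 at r = 0.65. A_72_P500648 also correlated with A_72_P219807 at r = 0.57 and with A_72_P238562 at r = 0.50, so the probes did not fall into separate sets. The start bases refer to different target records and give no common order. Between O13263 and A_72_P343408, however, r was -0.14, and between O13263 and A_72_P658025 it was 0.02. These are descriptions over pigs that share slides and scan days, and whether the probes read different transcripts was not tested.

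**Figure D4:**
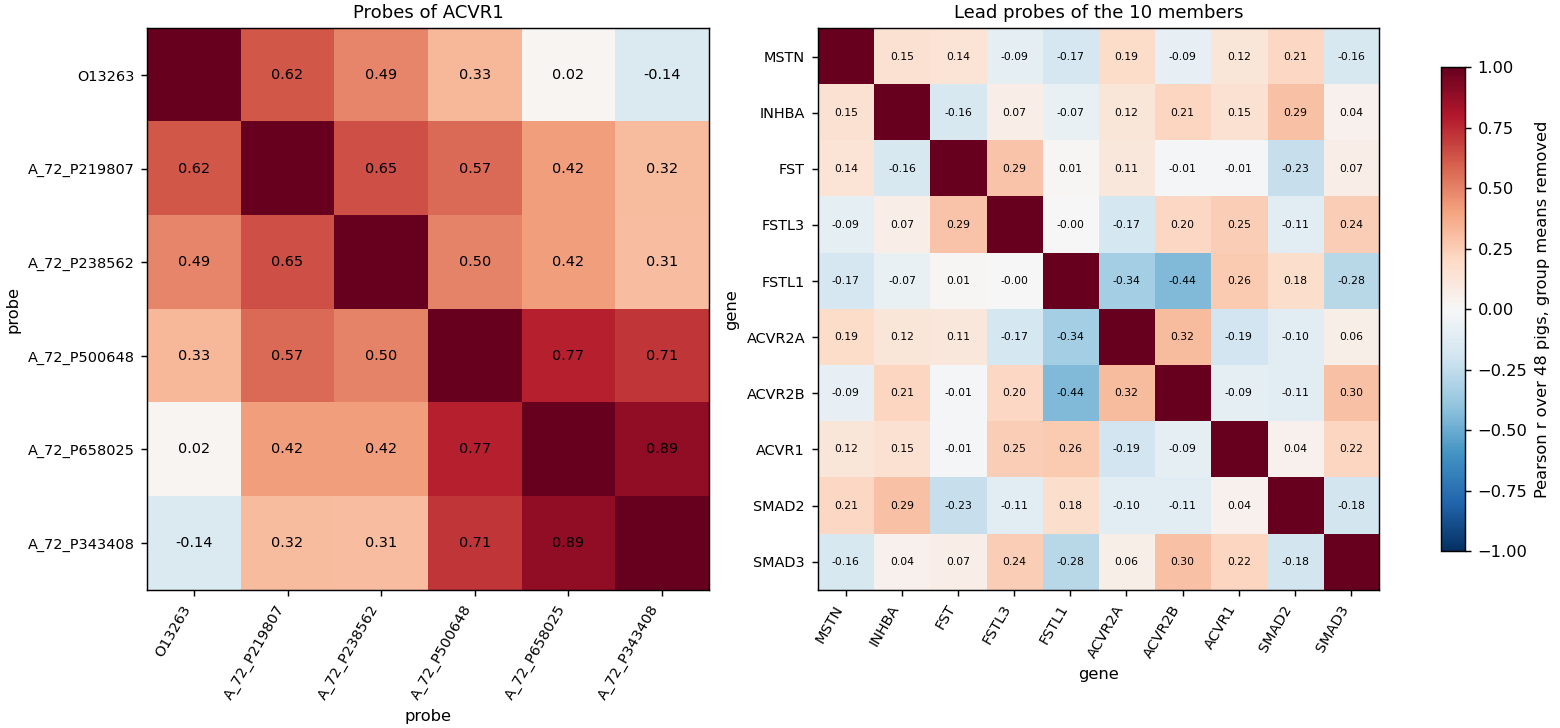
Pearson correlation over 48 pigs, with group means removed, between the 6 ACVR1 probes (left) and between the lead probes of the 10 members (right), on a colour scale from -1 to 1. The last 3 ACVR1 probes form a block with r of 0.71 to 0.89, while O13263 is near 0 with A_72_P658025 (0.02) and A_72_P343408 (-0.14), and among members the lowest value is that of FSTL1 with ACVR2B (-0.44).

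SMAD2, which carries myostatin and activin signals with SMAD3, was the member with the smallest line differences, 0.03 on A_72_P532658 and 0.0011 on A_72_P544747 (limma adjusted p = 0.742 and 0.993). On A_72_P532658 the level ran from -0.36 to 0.24 in low RFI pigs and from -0.32 to 0.51 in high RFI pigs, with medians of -0.05 in both. The 95% interval, from -0.07 to 0.12, excludes a difference of the size seen for ACVR2A. The SMAD2 probes did not vary together over pigs (r = 0.02, n = 48). SMAD3 gave line differences of -0.12, -0.08 and 0.07 on its 3 probes, none of them called (limma adjusted p between 0.344 and 0.670).

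Between diets, 0 of 24 member probes were called by limma, where 0.42% of all tested probes were called, and 5 member probes had an unadjusted p under 0.05 (13.1% of all tested probes). These were all 3 SMAD3 probes, 1 SMAD2 probe and 1 ACVR1 probe. The variance analysis for diet alone likewise called 0 member probes after adjustment and 5 before it.

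SMAD3 had the lowest p of the members between diets. On O13325, its brightest probe, the level ran from 1.82 to 2.70 on the HF diet around a median of 2.31, and from 2.12 to 3.31 on the LF diet around a median of 2.58. The diets overlapped, but 21 of 24 pigs on the HF diet were below the LF mean, 5 of them below every LF pig, and 9 LF pigs were above every HF pig. The means were 2.31 ± 0.28 and 2.63 ± 0.29 (SD, n = 24 each), a diet difference, HF minus LF, of -0.32 ± 0.08 (SE), with a 95% interval from -0.48 to -0.15 and a limma adjusted p of 0.0571. It passed the threshold with the slide or the scan day as a block (adjusted p 0.0405 and 0.0459), and its adjusted p ranged from 0.0405 to 0.124 over the alternatives.

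The SMAD3 difference was -0.36 in low RFI and -0.27 in high RFI pigs, and within slides it ranged from -0.46 to -0.14, below 0 on each of the 6. A_72_P146611 gave a diet difference of -0.25 and A_72_P444518 of -0.20, with unadjusted limma p of 0.00565 and 0.0372 and adjusted p of 0.173 and 0.340. On A_72_P146611, 20 of 24 HF pigs were below the LF mean, and on A_72_P444518, 19 of 24. The 3 probes share at most 7 consecutive bases with each other and correlated over pigs at r between 0.48 and 0.77 (n = 48, group means removed).

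**Figure D5:**
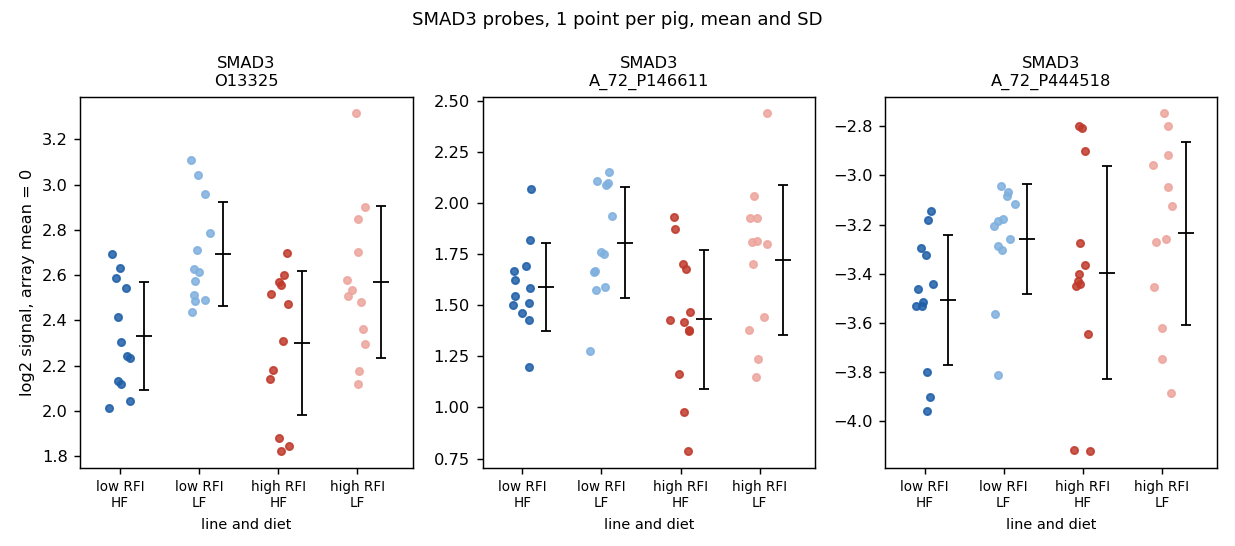
Level of the 3 SMAD3 probes in each of the 48 pigs (log2 signal, array mean at 0), by line and diet, with the mean and SD of each group of 12. In both lines the HF means lie below the LF means, with diet differences of -0.32, -0.25 and -0.20 that overlap between pigs and were not called.

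No other member came near the threshold between diets. On SMAD2 A_72_P532658 the diet difference was -0.10 (unadjusted limma p = 0.0497, adjusted 0.381), and on ACVR1 A_72_P238562 it was 0.19 (unadjusted p = 0.0325, adjusted 0.323), while the other 5 ACVR1 probes gave values between -0.06 and -0.01. The MSTN probes gave 0.09, 0.01 and 0.12, the FST probes 0.01 to 0.15, and INHBA -0.09, with limma adjusted p of 0.446 or more. ACVR2A gave 0.08, with 0.15 in low RFI and 0.00081 in high RFI pigs. No member probe was called by limma for the interaction of line and diet, where 0% of all tested probes were called and 0 of 24 member probes had an unadjusted p under 0.05 (4.45% of all tested probes). Across all 24 probes, 3 of 72 steps between neighbouring group means exceeded the smaller SD of the pair, 1 each for ACVR2A, ACVR2B O5503 and ACVR1 A_72_P219807.

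Among 53 tested genes of 79 listed around this pathway, each read at its brightest probe, 5 were called higher and 2 lower in high RFI pigs, 46 were not called and none was called between diets. One of the genes counted as lower, THBS1, had other probes called higher. Of all tested probes, 6.57% were called higher and 9.85% lower in high RFI pigs, and 0.42% were called between diets. Of 12 other ligands, TGFB1 was higher, by 0.27 ± 0.08 (SE, limma adjusted p = 0.0197), and GDF5, a ligand of joint and bone formation, by 0.16 ± 0.05 (adjusted p = 0.0351), while TGFB2 was lower, at -0.33 ± 0.09 (adjusted p = 0.0121). TGFB1 was called on both of its probes and TGFB2 on all 3, while GDF5 was called on 1 of 4. GDF11, the closest relative of myostatin, gave 0.30 and was not called (limma adjusted p = 0.157). The median over the other ligands was 0.06, beside -0.03 over all tested probes.

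None of 8 other receptors was called at its brightest probe, with a median of -0.05, although 1 of 4 BMPR1A probes was called lower, and ACVR1B, the type I receptor most used by myostatin and activin, gave -0.16 (limma adjusted p = 0.125). None of 11 other SMADs and nuclear partners was called at its brightest probe, with a median of -0.0008, among them the common partner SMAD4 at -0.0008 and the inhibitory SMAD7 at -0.20 (limma adjusted p = 0.994 and 0.232). PMEPA1, a target and inhibitor of the pathway, gave -0.21 at its brightest probe (limma adjusted p = 0.0620), and 1 of its 2 probes was called lower. Of 10 other extracellular antagonists and latency proteins 1 was called, LTBP2, which belongs to the latent TGFβ binding proteins, at 0.46 ± 0.14 (limma adjusted p = 0.0172), with a median over the list of -0.00032. IGSF1, a membrane glycoprotein, gave -0.05 at its brightest probe (limma adjusted p = 0.216), but 4 of its 6 probes were called higher, so no direction is given for it either. Of 4 enzymes that cleave propeptides 1 was called, the membrane protease MMP14, at 0.32 ± 0.09 (limma adjusted p = 0.0116), with a list median of 0.17.

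Of 8 genes known as transcriptional targets of SMADs, CDKN1A, an inhibitor of the cell cycle, was higher by 0.52 ± 0.14 (limma adjusted p = 0.0109) and on all 4 of its probes. THBS1, a matrix protein that activates latent TGFβ, was lower at its brightest probe, at -0.13 ± 0.04 (adjusted p = 0.0372), but 5 of its 7 probes were called higher, so no direction is given for it. The median over these targets was 0.27. ID3, at 0.25, was not called (limma adjusted p = 0.0595).

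Of the muscle fibre genes, 8 of 8 were well above background on all 48 arrays. So were all adipocyte and endothelial markers, so detection alone cannot tell the tissue. Markers of other cell types moved with the line too, and their part in the line differences of MSTN, ACVR2A and ACVR1 was not tested. Read at their brightest probes, all 8 muscle fibre genes had a negative line difference and 2 of them were called, TTN at -0.26 and MYH2 at -0.12 (limma adjusted p = 1.42e-05 and 0.0259). Of all 62 probes of these genes, 15 were called lower and 0 higher, beside 9.85% and 6.57% of all tested probes. Called lower were 6 of 11 for CKM, 3 of 5 for TNNT3, 3 of 5 for MYLPF, 2 of 5 for MYH2 and 1 of 2 for TTN. None of 17 ACTA1, 8 MYH1 and 9 MYH7 probes was called. A positive line difference was read by 5 of the MYH7 probes, 1 MYH1 probe and 1 TTN probe. The mean level of the list ran from 9.31 to 9.77 in high RFI and from 9.46 to 9.88 in low RFI pigs. Of 6 immune cell markers 2 were higher, CSF1R at 0.94 and CD14 at 0.30, while CD3E at -0.14 and PTPRC at -0.03 were negative and not called, with list means from -1.21 to 0.28 in high RFI and from -1.64 to -0.42 in low RFI pigs. Of 7 fibroblast markers 2 were higher, COL1A1 at 0.37 and COL1A2 at 0.32, with list means from 2.09 to 3.05 and from 2.01 to 2.89. Of 6 adipocyte markers FABP4 was higher, at 0.32, of 5 endothelial markers TEK, at 0.24, and of 4 satellite cell markers MYOD1, at 0.39, on 1 of its 2 probes. Among the markers not called, CDH5 at -0.15 and PECAM1 at -0.06 (endothelium) and CDH15 at -0.13 and PAX7 at -0.12 (satellite cells) were negative. The adipocyte, endothelial and satellite cell list means ran from 0.84 to 2.62, 1.08 to 2.12 and -2.86 to -1.41 in high RFI pigs, and from 0.56 to 2.41, 1.06 to 1.94 and -2.70 to -1.84 in low RFI pigs. Markers well above background on all 48 arrays numbered 4 of 6 for immune cells, 6 of 7 for fibroblasts, 6 of 6 for adipocytes, 5 of 5 for endothelium and 2 of 4 for satellite cells. None of 4 smooth muscle and 2 blood markers was called, with list means from 4.74 to 5.93 and -2.27 to -0.19 in high RFI and from 5.21 to 5.79 and -1.73 to -0.54 in low RFI pigs.

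From pig to pig within groups, the members did not vary together in a way that passed correction over their 45 pairs by Pearson's r. The pair with the smallest p was FSTL1 and ACVR2B, with r = -0.44 (permutation p = 0.0032, adjusted 0.144) and rho = -0.50 (permutation p = 0.0006, adjusted 0.0270), and r was -0.45 without the 2 pigs farthest from the median of FSTL1. With slide means removed as well, this r was -0.35 (adjusted permutation p = 0.309). FSTL1 and ACVR2A gave r = -0.34 (permutation p = 0.0237, adjusted 0.421), and ACVR2A and ACVR2B gave r = 0.32 (permutation p = 0.0331, adjusted 0.421). MSTN and FST gave r = 0.14 and MSTN and ACVR2B r = -0.09.

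The genes whose levels followed A_72_P225892, the brightest MSTN probe, most closely within groups were MTDH (r = 0.67), PCGF5 (0.62), TSHZ1 (0.61), RNF139 (0.61) and PCMTD1 (0.61), over 48 pigs and among 18023 probes with a symbol. Of these, PCMTD1 was higher in high RFI pigs, by 0.20 (limma adjusted p = 0.0286), and the other 4 were not called, with values from -0.05 to -0.02. Those that followed FST O4609 most closely were BMPER (r = 0.69), a secreted regulator of BMP signalling, NTRK2 (0.68), ITGB3 (0.67), ABCA6 (0.66) and PTH1R (0.60), with line differences between 0.07 and 0.30 that were not called (limma adjusted p between 0.0548 and 0.409).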

How the data were processed

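Gene expression was measured in longissimus muscle of 48 barrows, 12 per line and diet, each labelled with Cy3 on its own Agilent 60 K array. The authors deposited spot intensities from Feature Extraction 10.7.3.1, per the file headers, and a table of log2 values. In that table a value is the median spot signal on the log2 scale less the median of its array, for 34472 probes, as checked on the files, and served as an alternative. The submitters' processing notes name R 2.10.0. No spot was saturated, and 59.2% to 74.2% of probes per array were well above background. The number of arrays limits the precision.

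Controls and spots flagged as outliers were dropped, and repeated spots of a probe were averaged. From the log2 processed signals the array mean was subtracted, taken over the tested probes, 42125 of 60305, which had 169 missing values. The methods' mean centring was followed here. The 4 group means were fitted with limma 3.58.1 in R 4.3.3, and p-values were adjusted by Benjamini-Hochberg over all tested probes with a threshold of 0.05. Intervals are the unadjusted 95% intervals of that fit. Permutation tests used 100000 permutations within groups, or within diets for the difference between MSTN probes (Python 3.11.15, numpy 2.4.6).

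All probes of the members are reported, and the brightest tested probe of a gene is its lead probe. Other pathway genes were named when their lead probe was called, and further ones were chosen for their role after their values had been seen. The genes most like MSTN and FST were the 5 other symbols with the highest r. The members and lists were chosen with earlier results of these data known. Each slide held 2 pigs of each group, and each of 2 scan days 6 pigs of each group, so slide and day were tried as blocks. Gene names are those of the array files, counted as symbols where tables of gene names hold them, and no genome was used. Individual feed efficiency traits were not analysed here. Of the listed genes, 1 is not reported by name, and some probe sequences are not printed. Alternatives covered scaling, background correction, filters, outlier spots, blocks, the deposited table and a variance analysis for line or diet alone. They also covered the mean of a gene's probes, and letter case in the match, which changed no member.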

Additional observations from a re-analysis of the deposited data

How the results depend on the processing

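The 6 member probes called between lines kept a negative line difference under every alternative run, between -0.34 and -0.11. MSTN O14998, ACVR2A, ACVR1 A_72_P219807 and ACVR1 O13263 were called in each of them (limma or variance analysis, adjusted p between 0.0027 and 0.0465), while MSTN A_72_P165466 was lost without a filter on dim probes (adjusted p = 0.0503). The variance analysis without adjustment passed 10 member probes between lines, where 30.8% of all tested probes passed, and 5 between diets, where 11.9% passed. Limma without adjustment passed the same numbers of member probes, 10 (31% of all tested probes) and 5 (13.1%). The counts of 6 and 0 are those of limma after adjustment. For the line difference on the HF diet, 75th percentile scaling and the deposited log2 table called 2 member probes, and normexp correction and no filter called 0, against 1. Between diets, the slide as a block called 1 and the scan day as a block called 1, against 0, in both cases SMAD3 O13325. Some values near 0 changed sign without being called. These were SMAD2 A_72_P544747 between lines (-0.0051 with 75th percentile scaling, -0.0065 with quantile normalization, -0.014 with normexp correction), ACVR1 A_72_P219807 between diets (0.012 with 75th percentile scaling, 0.010 with normexp correction, 0.032 in the deposited table) and ACVR1 A_72_P500648 between diets (0.0021 with 75th percentile scaling, 0.0044 with quantile normalization). The cause was not tested. No pair of members passed correction by Pearson's r (permutation test) under any of the 3 alternatives, against 1 pair by Spearman's rho with quantile normalization, 1 with the mean of a gene's probes and 0 with slide means removed. The deposited table holds 23 of the 24 member probes. No paired analysis was possible because the labels give every pig the same replicate number. SMAD3 A_72_P444518 was well above background on 46 of 48 arrays, which limits its precision.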

Other observations

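1 probe, A_72_P108001, which a list of the study names FST, carries another name in the array files and was not counted as FST. It was well above background on 47 arrays, with a line difference of -0.01 and a diet difference of -0.09 (limma adjusted p = 0.969 and 0.901).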
